A study of Nothobranchius furzeri with 8 samples.

Results

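The nuclear-encoded cysteine tRNA was examined in the brain of the African turquoise killifish, a fish whose brain ages within months. Its members were the nuclear entries named tRNA-Cys, which are 2 of the 49 nuclear anticodons: Cys-GCA, with 21 genes, and Cys-ACA, with 1 gene. Cys-GCA was chosen by its charging: of all nuclear anticodons, it had the largest difference between young and old brains. The charging values of young and old brains below are therefore a description and carry no test. Cys-ACA is present only, with 6 reads in all, found in 3 of the 8 brains.

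tRNA-seq was carried out on 4 young brains at 5 wph (weeks post hatching) and 4 old brains at 39 wph, with 2 males and 2 females at each age. No treatment is named for any fish, and each sample was the brain of 1 fish, named here by age, sex and replicate number. Each sample held between 717858 and 3112101 reads, of which 21956 to 87234 were assigned to Cys-GCA. Samples of the same age differed far beyond sampling noise (over nuclear anticodons, chi-square values of 55.9 to 625 per degree of freedom), so none was the same library sequenced again. The values cannot tell separate fish from separate libraries of the same RNA. The tables hold tRNAs only, so the tissue label could not be checked against marker genes.

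tRNA-Cys-GCA reads the cysteine codons UGC and UGU, and cysteinyl-tRNA synthetase, a class I enzyme, joins cysteine to its 3′ end. Every mature tRNA ends in CCA, and the amino acid sits on the last A. Cysteine is the residue of disulfide bonds and metal sites and a building block of the antioxidant glutathione. Mitochondria use their own cysteine tRNA and their own synthetase. In the assay, RNA is kept mildly acidic so that the amino acid stays attached, and oxidation followed by β-elimination removes the last base of tRNAs without one. A read that ends in CCA thus comes from a charged tRNA and one that ends in CC from an uncharged tRNA. The charged share is the percentage of CCA ends among CCA and CC ends together.

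No base sequence of the cysteine tRNA is held in the tables, and no genome of the build used for alignment was at hand. In the tables the gene copies appear as a single cluster that joins 3 near-identical transcripts, written Cys-GCA-3/1/4, so no copy could be followed on its own. The number of genes, 21, was the largest of any nuclear anticodon, against a median of 6. For orientation, the RefSeq annotation of another assembly of this species, NfurGRZ-RIMD1, lists 164 genes under the symbol trnac-gca among 5622 tRNA genes. It lacks the high-confidence filter that the authors applied to their gene set, which counts 289 nuclear genes.

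The Cys-GCA cluster was charged to similar levels in all 4 young brains and to lower and far more variable levels in the old ones. Young males 1 and 2 had charged shares of 64.7 and 69.9%, and young females 1 and 2 had 68.2 and 69.7%. Old males 1 and 2 had 37.2 and 49.2%, and old females 1 and 2 had 26.8 and 61.6%. The ages did not overlap, although old female 2 lay only 3.06 points below young male 1. Young brains averaged 68.1% ± 2.41 and old brains 43.7% ± 15.0 (SD, n = 4 per age), so that they differed by −24.4 percentage points (old minus young). Between the lowest and the highest brain, the median charged share of the nuclear anticodons spanned 9.12 points in young and 20.4 points in old fish. For Cys-GCA this span was 5.21 points in young and 34.8 points in old fish. Counting error of reads was small beside this: the widest 95% Wilson interval, that of young male 2, reached from 69.3 to 70.5%. It treats reads as independent and leaves out the spread between fish. PCR copies of a molecule are counted as separate reads, so the counting error of molecules can be larger. Charging could be compared for 47 nuclear anticodons, those with a minimum of 100 CCA and CC ends per sample. Of these, Cys-GCA alone had all old brains below all young brains (2.13%), a count that the choice of this anticodon fixes in part.

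**Figure D1:**
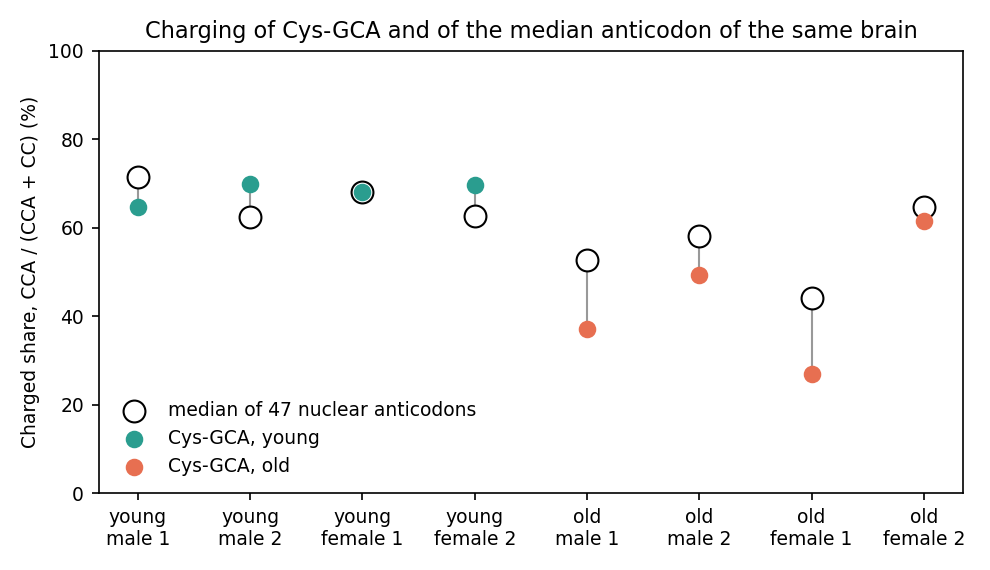
Charged share of Cys-GCA (filled circles, green for young and orange for old) and the median charged share of the 47 nuclear anticodons in the same brain (open circles), in percent, for each of the 8 brains. Cys-GCA lies above the median in 2 young brains, is itself the median in young female 1, and lies below it in young male 1 and in all 4 old brains.

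The old brains stood in the same order for Cys-GCA as for charging as a whole. Over all nuclear-encoded tRNAs, old females 1 and 2 had shares of 43.7 and 63.8%, and old males 1 and 2 had 51.7 and 56.5%. In young brains the order was fully reversed. Young male 1 had the highest overall share of the young fish (70.1%) and the lowest for Cys-GCA, and young male 2 had the lowest overall share (60.0%) and the highest for Cys-GCA.

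The level of Cys-GCA was therefore also set against the median nuclear anticodon of the same brain, as the difference in log2 odds of a CCA end. Young males 1 and 2 had differences of −0.45 and 0.49, and young females 1 and 2 had 0.00 and 0.46. Old males 1 and 2 had −0.91 and −0.51, and old females 1 and 2 had −1.11 and −0.18. Old female 2 thus lay above young male 1, and the ages overlapped on this relative scale. Young brains averaged 0.12 ± 0.44 and old brains −0.68 ± 0.41 (SD, n = 4 per age), a relative change of −0.80. Ranked from the highest charged share among the 47 anticodons, Cys-GCA stood at 40 and 5 in young males 1 and 2 and at 24 and 10 in young females 1 and 2. It stood at 43 and 39 in old males 1 and 2 and at 47 and 33 in old females 1 and 2. In old female 1 it was the least charged of all nuclear anticodons.

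By mean share, Cys-GCA ranked 20 of 47 in young brains. Its neighbours there were Pro-TGG (68.8% ± 2.68) and Val-AAC (68.1% ± 3.91) above and Arg-TCT (67.9% ± 1.74) and Arg-CCG (67.4% ± 1.74) below (SD, n = 4 per group), all within the spread between brains. In old brains it ranked 42, between Glu-TTC (45.7% ± 9.21) and Ser-TGA (44.2% ± 9.63) above and Glu-CTC (41.9% ± 10.8) and Arg-TCG (40.4% ± 11.8) below, again within the spread. By mean share its place thus lay in the middle of the order in young brains, among proline, valine and arginine tRNAs. In old brains it lay near the end, among glutamate, serine and arginine tRNAs. These are places of means: in single brains its rank ran from 5 to 40 in young and from 33 to 47 in old fish.

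**Figure D2:**
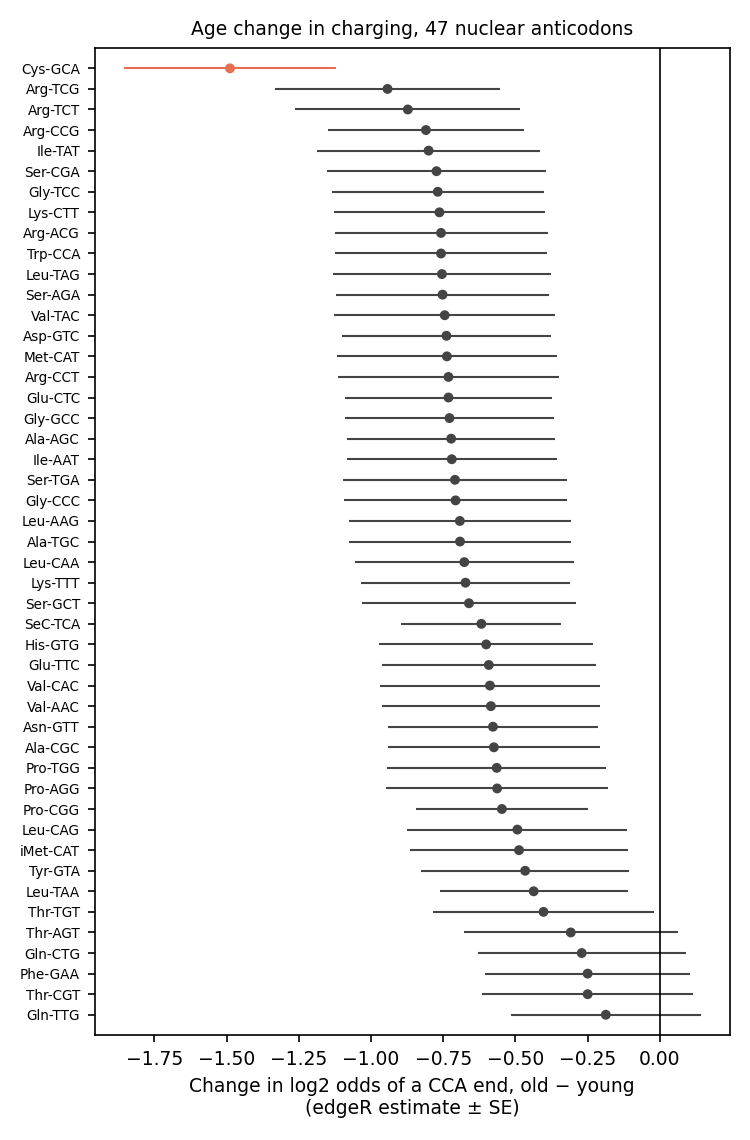
Old against young brains, edgeR estimate of the charging change with its SE for each of the 47 nuclear anticodons (horizontal axis, log2 odds of CCA against CC), sorted by size. Cys-GCA (orange) lies at −1.49 and the other 46 between −0.94 and −0.19.

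In the edgeR fit of every nuclear anticodon, Cys-GCA had a log2 odds change of −1.49 (SE 0.37). The next in order were Arg-TCG (−0.94, SE 0.39), Arg-TCT (−0.87, SE 0.39) and Arg-CCG (−0.81, SE 0.34). The smallest changes were those of Phe-GAA (−0.25, SE 0.36), Thr-CGT (−0.25, SE 0.37) and Gln-TTG (−0.19, SE 0.33). The estimates of all 47 anticodons were negative, with a median of −0.69. Measured from the mean of the young brains, Cys-GCA had the lowest log2 odds of the 47 in 3 old brains. These were male 1 (−1.85, against −0.75 for the median anticodon), male 2 (−1.14 against −0.63) and female 1 (−2.54 against −1.28). In old female 2 it ranked 6 from the lowest (−0.41 against 0.08). Without old female 2 the difference in charged share was −30.3 points, and without old female 1 it was −18.8 points.

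The tRNAs of methionine and selenocysteine, the other amino acids that carry sulfur or selenium, had smaller estimates. The difference from Cys-GCA was not tested. Met-CAT, which serves elongation, had a change of −0.74 (SE 0.38), initiator iMet-CAT one of −0.49 (SE 0.38) and SeC-TCA, which inserts selenocysteine at recoded stop codons, one of −0.62 (SE 0.28). All 3 were negative, with a median of −0.62 beside −0.69 over all anticodons, and 0 of the 3 had an edgeR adjusted p below 0.05 in charging or in abundance. Over all 47 anticodons 1 passed in charging (2.13%) and 3 in abundance (6.38%), so a count of 0 among 3 does not set this list apart. The 1 in charging was Cys-GCA itself, which was chosen on this contrast, so that count is background only and no support. The count in charging was 38 without old female 2 and 0 without old male 1 or with replicate numbers within each sex as a block. Among the anticodons served by class I synthetases, the 23 without Cys-GCA had a median of −0.72 and a range from −0.94 to −0.19. The 23 served by class II enzymes had a median of −0.66.

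All 4 kinds of 3′ end were then considered for Cys-GCA. Reads with a CCA end made up 63.0 and 67.4% in young males 1 and 2 and 66.1 and 67.0% in young females 1 and 2. They made up 35.1 and 46.7% in old males 1 and 2 and 22.0 and 59.7% in old females 1 and 2. Reads with a CC end took up most of the difference, with 30.9% ± 2.50 of the reads at the young age and 51.1% ± 10.7 at the old (SD, n = 4 per age). The 8 brains stood in exactly reversed order in the 2 classes. This is largely forced, because the 2 classes together made up most of the reads of each brain.

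**Figure D3:**
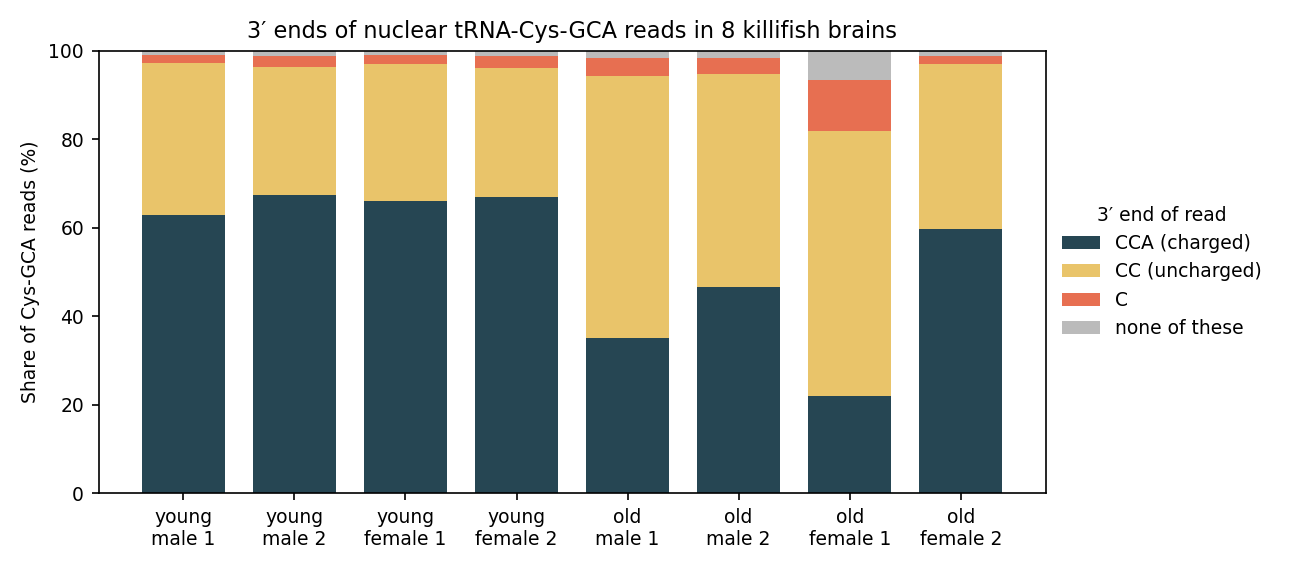
Share of Cys-GCA reads by 3′ end in each brain, in percent of all its reads with an assigned end. CCA ends fill 63.0 to 67.4% of the bar in young brains and 22.0 to 59.7% in old brains, and the classes C and none of these are thickest in old female 1.

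Ends in C alone were uncommon for the cysteine tRNA except in old female 1. Reads ending in C alone were 1.75 and 2.45% of the total in young males 1 and 2 and 1.94 and 2.62% in young females 1 and 2. They were 3.93 and 3.51% in old males 1 and 2 and 11.6 and 1.95% in old females 1 and 2. Old female 1 was high and old female 2 fell within the young range, so the ages overlapped. The means were 2.19% ± 0.413 and 5.26% ± 4.34 (SD, n = 4 per group). In every brain the share lay below that of the median anticodon, which ran from 4.32 to 7.52% in young and from 5.34 to 22.7% in old brains. Over the 8 brains only 4 of the 47 anticodons, Ser-GCT, Pro-CGG, Ser-TGA and Asn-GTT, had a lower mean share of C ends. Relative to the median anticodon the C share of Cys-GCA changed by −3.25 points (old minus young), whereas by itself it was higher by 3.07 points, and by 0.943 points without old female 1. Over all nuclear-encoded tRNAs, C ends took 24.6% of the reads in old female 1, the brain with the lowest Cys-GCA charging, and 4.87 to 12.6% in the others. Their part in the charged share was not tested. With all 4 end classes in the denominator the difference between ages was −25.0 points.

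A synthetic E. coli tRNA-Lys with known ends was added to each sample after the oxidation, so it reports on the later steps of the library only. Its share of CCA ends was 76.8 to 77.6% in young and 77.6 to 80.3% in old samples, so it did not fall with the charged share of Cys-GCA and was highest in old female 1. Scaled to it, Cys-GCA had a charged share of 65.4% ± 2.80 at the young age and 39.0% ± 15.2 at the old (SD, n = 4 per age), and the ages differed by −26.4 points.

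The amount of the cysteine tRNA was measured apart from its 3′ ends, in the table of reads per anticodon, and could be tested. Cys-GCA took 3.03 and 3.34% of the nuclear tRNA reads in young males 1 and 2 and 2.95 and 3.15% in young females 1 and 2. It took 3.22 and 3.001% in old males 1 and 2 and 2.82 and 3.10% in old females 1 and 2. The ages overlapped over most of their range, with means of 3.12% ± 0.171 and 3.03% ± 0.168 (SD, n = 4 per group). The quasi-likelihood test of edgeR gave a log2 change of −0.04 with a 95% interval from −0.17 to 0.09 (SE 0.06, edgeR adjusted p = 0.671). A larger change in either direction was estimated for 34 of the 47 anticodons. The interval corresponds to 0.888-fold to 1.06-fold of the young level. For comparison, 3 of 47 anticodons passed in abundance (6.38%). Since whole brains were used, a change in the mix of cells and a change in tRNA per cell cannot be told apart in these shares.

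The pool of charged cysteine tRNA, as a share of all nuclear tRNA, was smaller in every old brain than in every young one. Old female 2 lay only 0.0537 points below young male 1. For how many other anticodons the ages stood apart in this way was not counted. Reads of Cys-GCA with a CCA end were 1.89, 2.24, 1.94 and 2.10% of all nuclear reads with an assigned end in young male 1, male 2, female 1 and female 2. They were 1.12, 1.39, 0.614 and 1.84% in the old brains in the same order. The old mean was 0.608 times the young one (2.04% ± 0.160 against 1.24% ± 0.513, SD, n = 4 per group). Reads with a CC end were 0.955% ± 0.0592 of the nuclear reads at the young age and 1.54% ± 0.321 at the old. The 2 values of each brain use the same reads as the charged share and are not separate evidence.

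**Figure D4:**
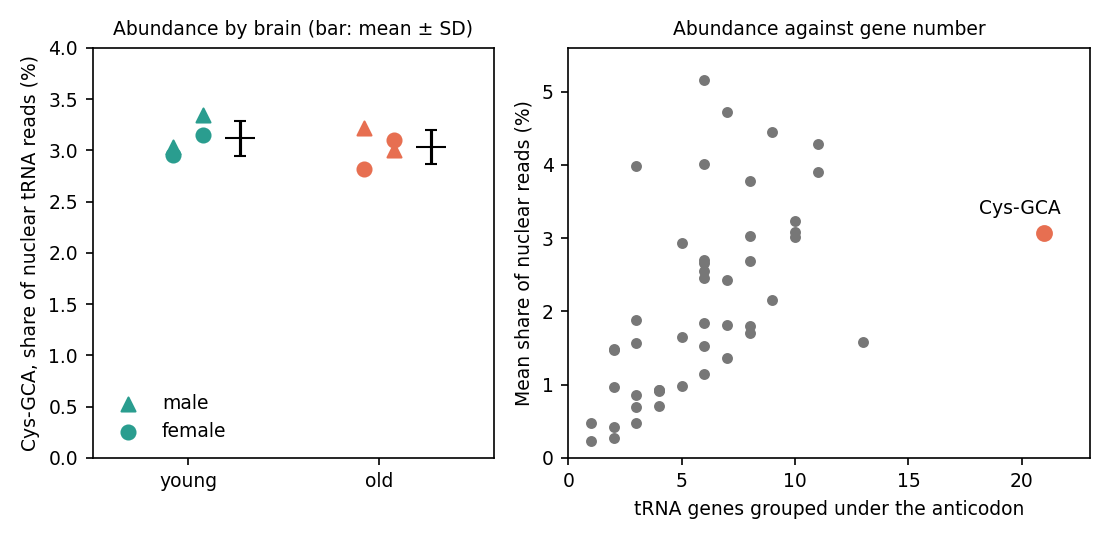
Left, Cys-GCA reads as a percentage of nuclear tRNA reads in each brain, with triangles for males, circles for females and the mean ± SD of 4 brains beside them. Right, mean share of nuclear reads over the 8 brains against the number of genes for the 47 nuclear anticodons, with Cys-GCA at 21 genes and 3.08%.

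Its abundance was modest for the number of genes in the authors' filtered set, and abundance per gene in the RefSeq annotation was not examined. Over the 8 brains Cys-GCA ranked 11 of 47 in abundance with a mean of 3.08%, next to Gly-TCC (3.09%, 10 genes) and Asn-GTT (3.03%, 8 genes). Divided by the number of genes, this was 0.146% of the nuclear reads per gene, against 0.324% for the median anticodon. Only Pro-CGG (0.135%) and Ala-TGC (0.121%) had less per gene. The rank in abundance stayed between 9 and 13 in every brain, while the rank in charging moved between 5 and 47.

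Males and females were compared with age in the fit, a contrast that did not enter the choice of the anticodon. The charged share was 55.3% ± 14.9 over the 4 males and 56.6% ± 20.1 over the 4 females (SD), a difference in log2 odds of 0.06 (SE 0.40, 95% interval −0.72 to 0.85, edgeR adjusted p = 0.997). In abundance, males had 3.15% ± 0.162 and females 3.01% ± 0.150 of the nuclear reads (SD, n = 4 per group), with a log2 difference of −0.07 (SE 0.06, 95% interval −0.19 to 0.06, edgeR adjusted p = 0.835). In edgeR 0 of 47 anticodons passed in either comparison (0%), with 0 in charging and 1 in abundance at an unadjusted p below 0.05. DESeq2 gave 0 in abundance, with 5 unadjusted. The charging interval is wide, so a moderate difference between the sexes was not detectable with 4 brains each. In males the mean share went from 67.3 to 43.2%, a change of −24.1 points, and in females from 68.9 to 44.2%, a change of −24.7 points (n = 2 per age and sex). These changes differed by −0.628 points. An exact two-sided permutation test, with ages relabelled within the sexes in 36 ways, cannot judge this difference. Relabelling also breaks up the age change that both sexes share, and the smallest p it allows is 0.0556, above the threshold.

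Of the other nuclear tRNAs, 3 of the 5 arginine anticodons had the pattern over the brains most like that of Cys-GCA. Likeness was the root mean square difference, over the 8 brains, of the log2 odds of a CCA end after removal of the median of each brain and the mean of each anticodon. It was 0.36 for Arg-TCG, 0.36 for Arg-TCT and 0.40 for Arg-CCG, against a median of 0.56 and a highest value of 0.89 for Thr-CGT. Ile-TAT (0.42), Met-CAT (0.44) and Val-TAC (0.48) came next, so the likeness was not confined to arginine tRNAs. Arg-CCT (0.50) and Arg-ACG (0.52) ranked 7 and 12, near that median. Arg-TCG, Arg-TCT and Arg-CCG were also low in young male 1, higher in the other young brains and low in 3 of the 4 old brains. In old female 2 all 3 lay further from 0 than Cys-GCA, as did Arg-TCT and Arg-CCG in young male 1, and in the other 6 brains all 3 lay closer to 0. The points share libraries, and the same counts underlie the order of the changes with age.

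**Figure D5:**
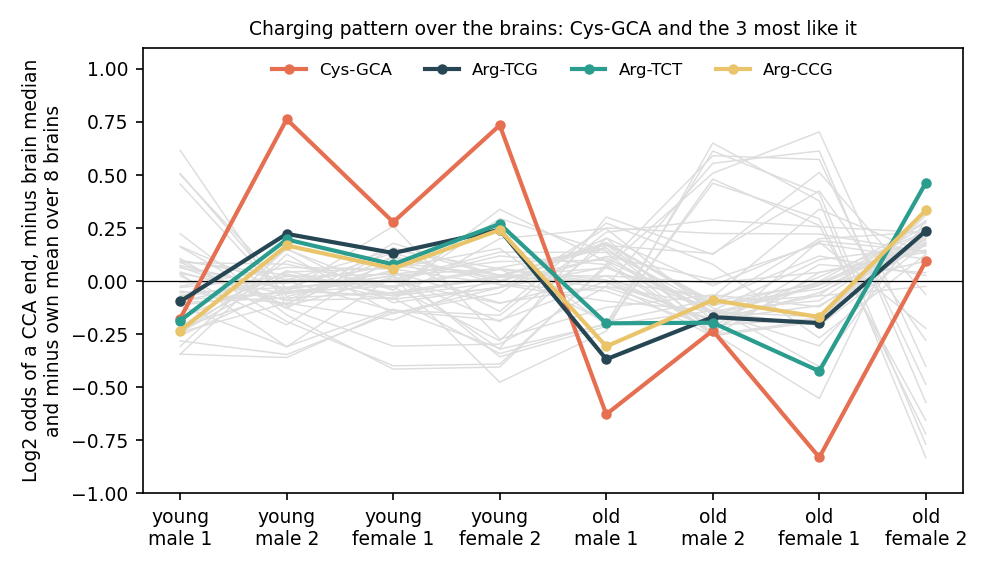
Log2 odds of a CCA end for each nuclear anticodon in each brain, after subtraction of the median of the brain and of the anticodon's own mean over the 8 brains. Cys-GCA (orange) and the 3 anticodons with the smallest root mean square difference from it (0.36, 0.36 and 0.40) are coloured, the others are grey, and the lines only join the points of an anticodon.

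The mitochondrial cysteine tRNA, which has the same anticodon, could not be read in the same way. Its reads numbered 856 to 4789 per sample, between 1.497 and 1.69% of the mitochondrial tRNA reads. In the table of 3′ ends, 97.6 to 98.6% of its reads had none of the ends CCA, CC or C, and 4 to 24 reads per sample ended in CCA or CC. With 114 such reads over the 8 brains, of which 110 ended in CCA, it stayed below the minimum of 100 per sample, and its charging was not tested. When mitochondrial and nuclear anticodons were fitted together, the estimate for its abundance was 0.10 on the log2 scale (SE 0.10, edgeR adjusted p = 0.444), with 16 of 69 anticodons past the threshold in that fit, of which 6 were nuclear.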

How the data were processed

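The authors used cutadapt 3.5 for trimming and demultiplexing. They then counted reads in mim-tRNAseq 1.3.8 on a high-confidence set of nuclear tRNA genes plus mitochondrial tRNAs. The deposited values are raw counts per anticodon, with its number of genes, and raw counts per transcript or cluster and 3′ end. Per the file headers, the run had a clustering identity of 0.97, which differs from the setting in the study's methods. Unused per-sample columns numbered 0.

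Counts were tested in R 4.3.3 with edgeR 4.0.16 (TMM, 10 or more counts in 4 or more samples), with Benjamini-Hochberg adjustment over all nuclear anticodons and a threshold of 0.05. Charging was fitted on CCA and CC counts with 1 effect per sample. The SE is the absolute estimate divided by the square root of F. It and the p-values rest on the spread between fish as edgeR moderates it across anticodons, not on the spread of each anticodon alone. In charging the anticodons of a brain also moved together, with a median log2 odds between −0.34 and 1.33 in single brains. The fit holds no term for a charging shift of a whole brain, so the SE and intervals in charging can be too narrow. For Cys-GCA alone the log2 odds of a CCA end had an SD of 0.158 in young and 0.917 in old brains. Log2 odds had 0.5 added to each count. With 10 of 47 anticodons changed in simulated data by a log2 change of 1 in abundance or −1.5 in charging odds, 100% and 98.5% were recovered. False calls averaged 0.3 and 0.45 per simulated set. The simulated noise was independent between anticodons, without a shift shared within a brain, and the real abundance changes ran only from −0.48 to 0.25. These rates therefore check the code and do not tell how often changes in these brains would be found.

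Alternatives were DESeq2 1.42.0, limma 3.58.1, other normalization, filters, references and denominators, sex or a replicate block, and leaving out each brain. The members, lists and tests were chosen with earlier results of these data known. The naming rule took cysteine tRNAs, neighbours in level, the 3 next and 3 smallest changes, the 3 most alike patterns, the sulfur and selenium list and ends of ranges. The 4 tRNAs with fewer C ends, Arg-CCT, Arg-ACG, Ile-TAT and Val-TAC, and the comparison of age changes between the sexes were added after their values were seen.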

Additional observations from a re-analysis of the deposited data

Results flagged for a closer look

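Among the 14 sets of 4 brains examined (7 measures of Cys-GCA at each age), 1 held a brain far from the others. Reads of Cys-GCA with none of the ends CCA, CC or C made up 6.55% in old female 1, while the other old brains had between 1.15 and 1.71% and the young ones between 0.914 and 1.20%. The gap to the next old brain was 0.897 of the whole range, above Dixon's critical value for 4 samples, which chance passes in about 1 of 20 sets. The median anticodon had 3.76% in that brain, and Cys-GCA ranked 39 from the lowest there, against 14 to 20 in the other brains.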

How the results depend on the processing

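Of 111 alternatives, 94 kept the direction and the side of the threshold or stayed within 1 SD of the brains, 13 moved a number of anticodons called by over 1.5 times and 4 turned a direction (3 in the sex difference in charging). Part of the 94 could not have come out otherwise, so this count does not measure robustness. Leaving out 1 brain cannot shift a difference of means by 1 SD. The mean difference within pairs equals the difference of means, and other read minimums kept the same 47 anticodons. The charged share difference ran from −30.3 to −18.8 points and the change in log2 odds from −1.85 to −1.14 when single brains were left out, and the relative change from −0.99 to −0.66. The abundance change ran from −0.07 to −0.00044 over all alternatives (adjusted p 0.397 to 0.997). The C share turned to −3.25 points when the median anticodon was subtracted. The sex difference in charging ran from −0.35 to 0.50 and in abundance from −0.10 to −0.03 with single brains left out, with adjusted p from 0.537 to 1.00. For C ends leaving out brains gave 0.943 (without old female 1) to 4.17 points. The number of anticodons called in abundance was 3 in edgeR, 6 in DESeq2, 6 with mitochondrial tRNAs in the fit and 0 to 8 with single brains left out (8 without old female 2). In charging it was 1, and 0 to 38 with single brains left out (38 without old female 2, 0 without old male 1). Which anticodons these were was not compared between settings, and the cause was not tested.

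Pairs of the same sex and replicate number are different fish, and the deviations of paired brains correlated between −0.283 and 0.793 in log2 odds and between −0.366 and 0.197 in log2 abundance across anticodons. With the replicate block, 1 anticodon was called in abundance and 0 in charging, and the abundance change of Cys-GCA was −0.04 (edgeR adjusted p = 0.709). The mean difference within pairs was −24.4 points in charged share and −0.80 in relative log2 odds. With complete pairs these means equal the unpaired differences by arithmetic, so they are no check of the pairing. No comparison between cysteine transcripts was run, because the nuclear cysteine tRNA is 1 cluster, and the mitochondrial one had too few reads ending in CCA or CC for its charging.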
